A study of Mus musculus with 14 samples.

Results

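The genes described here encode 7 surface receptors of T cells: Lag3 (LAG-3), Tigit (TIGIT), Havcr2 (TIM-3), Cd160 (CD160), Vsir (VISTA), Cd96 (CD96) and Cd226 (CD226, also called DNAM-1). They were chosen by name and read out under their Entrez gene identifiers, and all 7 were found among the 27179 genes of the count table and were among the 13075 genes with enough counts to be tested. The series holds 14 libraries of bulk RNA from CD4 T cells of C57BL/6 mice, grown from naive cells for 3.5 days on plate-bound antibodies against CD3 and CD28 and then sorted. Th1 (5 libraries) names cells cultured under Th1 conditions, whose cytokines and antibodies the labels do not name. TfhA (4 libraries, numbered 1, 2, 4 and 5) names a culture toward follicular helper T cells, which support antibody responses of B cells, with an antibody that blocks TGF-β. Tfh5 (5 libraries) names the follicular helper culture with 5 ng/ml TGF-β in place of the blockade. All groups carried no named genetic change, and the sex and age of the animals, the sort gate and whether each library had its own animal or culture are not stated in the labels, so p-values measure only the spread between these samples, which may be technical.

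Inhibitory receptors are induced on activated T cells and dampen signals from the T cell receptor and CD28 when they meet ligands on other cells. LAG-3 is a relative of CD4 that binds MHC class II. TIGIT, CD96 and CD226 share ligands of the nectin family, above all the poliovirus receptor Pvr. Within that group CD226 is the activating receptor and TIGIT the inhibitory one that competes with it, while CD96 has been ascribed either role. TIM-3 is known from interferon-γ producing Th1 cells and binds galectin-9 among other ligands, CD160 binds the TNF receptor family member HVEM, and VISTA is a relative of PD-L1 that is found on naive T cells and myeloid cells.

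Levels are read counts divided by library size and scaled to CPM, the usual per-library unit, after TMM correction. They are given for single libraries or as the mean ± SD over the 5, 4 and 5 libraries of Th1, TfhA and Tfh5. A log2 fold change is given ± SE from the edgeR quasi-likelihood fit of all 14 libraries, and genes with a two-sided p below 0.05 after Benjamini-Hochberg adjustment over the 13075 tested genes are said to have passed. Library totals ran from 8805921 to 16108059 counts, the group means being 14500313 (Th1), 10679262 (TfhA) and 10968996 (Tfh5). The share of counts from mitochondrial genes was 7.29% to 8.54% in Tfh5 and 4.07% to 7.01% over the other libraries. The 10 genes that define CD4 T cells had counts in every group, but their summed level differed without overlap, at 5555 to 5901 CPM for Th1, 6125 to 7309 CPM for TfhA and 9330 to 9852 CPM for Tfh5. Of these genes 8 of 10 were higher in Tfh5 than in TfhA and 10 of 10 higher than in Th1. Of all tested genes, 27.4% and 31.5% were higher in these comparisons. The part of this marker difference in the receptor levels was not tested. In bulk RNA, fewer cells that express a gene and less of its RNA per cell cannot be told apart. The comparison of Tfh5 with TfhA and that of TfhA with Th1 share the TfhA libraries, and each shares a group with that of Tfh5 with Th1.

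The 7 receptor genes did not move as a block. With TGF-β in place of its blockade, Lag3, Cd96 and Vsir were higher and Tigit, Cd160, Cd226 and Havcr2 lower, so that 7 of 7 passed, 3 higher and 4 lower. In that comparison 57.5% of all tested genes passed, 27.4% higher and 30.1% lower. At least 2-fold differences were found for 5 of the 7, against 23.7% of all tested genes. The libraries of the compared groups did not overlap for 6 of the 7, the exception being Tigit, against 44.2% of all tested genes. Each of these counts includes Havcr2, which had 13 counts over the TfhA libraries and 0 in Tfh5 and was tested in this comparison only through its counts in Th1. With only the TfhA and Tfh5 libraries it fell below the count filter, and 6 receptor genes were tested and passed. Leaving Havcr2 out, 4 of 6 differed at least 2-fold and 5 of 6 did not overlap. Between TfhA and Th1, 2 of the 7 were higher, 4 were lower and Cd96 did not pass, where 44.8% of tested genes passed (23.2% higher, 21.6% lower). Libraries did not overlap for 5 of the 7, against 38.1% of tested genes. Between Tfh5 and Th1, 4 were higher and 3 lower, where 64.6% of tested genes passed (31.5% higher, 33% lower). Libraries did not overlap for 6 of the 7, against 50.2% of tested genes. The median size of the log2 fold change was 1.63, 1.07 and 1.75 for the 7 genes in these comparisons, in the order given, beside 0.49, 0.35 and 0.54 over all tested genes. The 7 genes were chosen with earlier results of these data known. Their counts and medians beside those of all tested genes are therefore description and no test of the set.

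**Figure D1:**
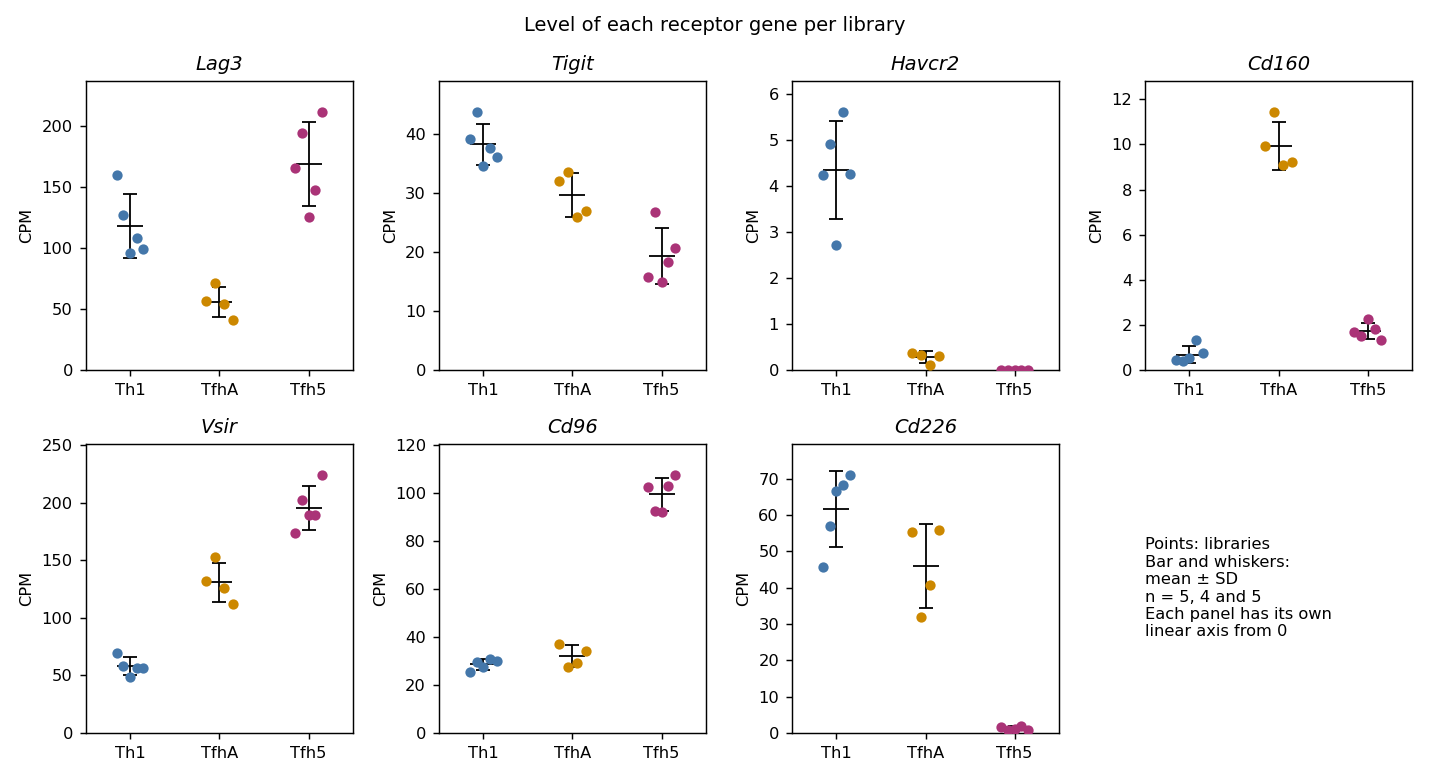
CPM (y axis, linear from 0, a separate scale per panel) of each of the 7 receptor genes in the Th1, TfhA and Tfh5 libraries. Each point is a library and the bar with whiskers is the mean ± SD. Lag3 is lowest in TfhA, Cd160 is highest there, Vsir and Cd96 are highest in Tfh5, and Havcr2 and Cd226 are near 0 in Tfh5.

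Lag3 (Entrez gene 16768, chr6:124904359-124912434 of GRCm38, minus strand) was lower in TfhA than in both other groups, the only one of the 7 genes with that order. In Th1 the libraries numbered 1 to 5 had 160, 127, 95.7, 108 and 99 CPM. In TfhA the libraries numbered 1, 2, 4 and 5 had 57, 71, 54.5 and 41.3 CPM. In Tfh5 the 5 libraries had 165, 194, 126, 148 and 211 CPM. Every TfhA library lay below every library of the other groups, while Th1 and Tfh5 overlapped. Library 1 of Th1 lay above the lower 2 of Tfh5, and library 2 of Th1 (126.8 CPM) just above the lowest (125.7 CPM). Lag3 was 3.01-fold higher in Tfh5 than in TfhA (log2 fold change 1.59 ± 0.17, adjusted p = 1.07e-08). It was 2.1-fold lower in TfhA than in Th1 (-1.07 ± 0.16, adjusted p = 8.9e-06) and 1.43-fold higher in Tfh5 than in Th1 (0.52 ± 0.15, adjusted p = 0.00375). The order was therefore Tfh5, Th1, TfhA, with each step past the threshold although the first step held overlapping libraries. The gene for CD4, the relative of LAG-3, lies 16111 bases from Lag3, and its levels had the same order over a narrower range (548 ± 26.6 CPM in Tfh5, 460 ± 23.9 in Th1 and 399 ± 30.5 in TfhA).

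Tigit (Entrez gene 100043314, chr16:43626137-43665125, minus strand) was highest in Th1 and lowest in Tfh5. The Th1 libraries had 39, 43.7, 34.5, 37.7 and 36.1 CPM. The TfhA libraries had 32, 33.5, 26 and 26.9 CPM. The Tfh5 libraries had 15.8, 26.8, 14.9, 18.3 and 20.6 CPM. Library 2 of Tfh5 reached into the TfhA range, and the Th1 libraries lay above all others. Tigit was 1.98-fold lower in Tfh5 than in Th1 (log2 fold change -0.99 ± 0.14, adjusted p = 8.88e-07) and 1.54-fold lower in Tfh5 than in TfhA (-0.62 ± 0.15, adjusted p = 0.000794). The smaller difference between TfhA and Th1 (-0.36 ± 0.14, adjusted p = 0.041) was lost without Th1 replicate 1, 2 or 4 or TfhA replicate 4 or 5, at adjusted p from 0.0562 to 0.118 (0.00796 to 0.118 over all alternatives). Tigit and Lag3, both inhibitory, thus moved in opposite directions between TfhA and Tfh5, each past the threshold.

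Cd96 (Entrez gene 84544, chr16:46035652-46120248, minus strand), which lies 2370526 bases from Tigit, was higher in Tfh5 than in both other groups. The Th1 libraries had 25.3, 29.6, 27.4, 30.8 and 29.9 CPM. The TfhA libraries had 37.1, 27.6, 28.9 and 34.3 CPM. The Tfh5 libraries had 102, 92.2, 91.9, 103 and 107 CPM. The lowest Tfh5 library (91.9 CPM) lay far above the highest of the other libraries (37.1 CPM), and Th1 and TfhA overlapped. Cd96 was 3.1-fold higher in Tfh5 than in TfhA (log2 fold change 1.63 ± 0.11, adjusted p = 3.3e-12) and 3.47-fold higher than in Th1 (1.80 ± 0.10, adjusted p = 5.4e-14). TfhA and Th1 did not differ beyond their spread (0.16 ± 0.11, adjusted p = 0.229).

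Cd226 (Entrez gene 225825, chr18:89176954-89272232, plus strand), the activating receptor, fell to near the limit of detection in Tfh5. The Th1 libraries had 45.7, 56.9, 66.5, 68.1 and 71 CPM. The TfhA libraries had 55.4, 31.9, 40.8 and 55.7 CPM. The Tfh5 libraries had 1.71, 0.918, 1.13, 1.9 and 0.673 CPM, from 68 counts in all. No Tfh5 library came near the lowest library of another group (31.9 CPM), and Th1 and TfhA overlapped. Cd226 was 36.6-fold lower in Tfh5 than in TfhA (log2 fold change -5.19 ± 0.23, adjusted p = 1.52e-15) and 49-fold lower than in Th1 (-5.62 ± 0.23, adjusted p = 6.93e-17). Between Tfh5 and TfhA it ranked 109 from the bottom among 13075 tested genes by fold change. The difference between TfhA and Th1 (-0.42 ± 0.17, adjusted p = 0.0406) was lost without TfhA replicate 2 or 4 or Th1 replicate 3, 4 or 5, at adjusted p from 0.0798 to 0.169, and without TfhA replicate 2 its size fell from -0.42 to -0.28.

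Set against each other within each library, the receptors for nectin family ligands changed their proportions. Per length of exon, where levels of different genes can be compared, Tigit in Th1 stood at 41.6 CPM per kb, Cd96 at 13.1 and Cd226 at 12.6. In TfhA the levels were 32.2 for Tigit, 14.6 for Cd96 and 9.4 CPM per kb for Cd226. In Tfh5 they were 21 for Tigit, 45.5 for Cd96 and 0.259 CPM per kb for Cd226. Per length, Tigit was thus the most abundant of these genes in Th1 and TfhA, and Cd96 in Tfh5. For Th1 and TfhA this rank rests on the exon lengths used (919, 2184 and 4891 bases for Tigit, Cd96 and Cd226). The annotation behind the counts is not known. In CPM, Cd226 was above Tigit in Th1 (61.6 against 38.2) and in TfhA (46 against 29.6). Of the summed level of these genes per length, Tigit held 61.8% ± 4.09 in Th1, 57.3% ± 5.85 in TfhA and 31.2% ± 5.62 in Tfh5. Cd96 held 19.5% ± 0.981, 26% ± 2.28 and 68.4% ± 5.52, and Cd226 held 18.8% ± 3.17, 16.7% ± 3.59 and 0.394% ± 0.169, in the same order. The median ratio of Tigit to Cd226 per length was 2.94 in Th1 (2.7 to 4.55) and 3.23 in TfhA (2.56 to 5.59). In Tfh5 it reached 70.1 (49.1 to 163). The ratio of the inhibitory to the activating receptor was thus higher in every Tfh5 library than in any other, although Tigit itself was lowest there.

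**Figure D2:**
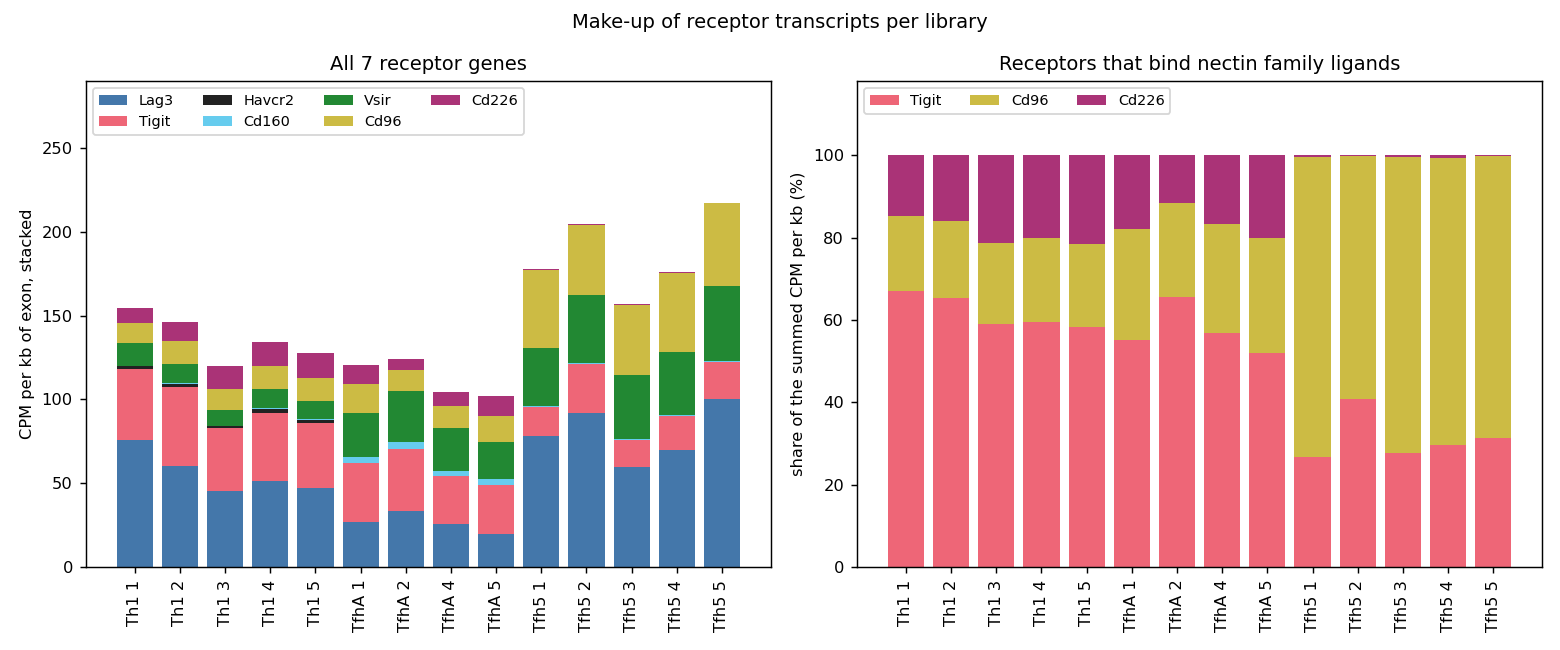
Left, CPM per kb of exon of the 7 receptor genes, stacked, in each of the 14 libraries (x axis). Right, percent of the summed CPM per kb of Tigit, Cd96 and Cd226 that each of these genes held in the same libraries. Cd96 holds 59% to 72.7% on the right in Tfh5 and 18.2% to 27.9% in the other libraries, while Cd226 all but vanishes in Tfh5.

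Havcr2 (Entrez gene 171285, chr11:46454931-46481255, plus strand), which encodes TIM-3, was low throughout and highest in Th1. The Th1 libraries had 4.24, 4.92, 2.72, 5.62 and 4.26 CPM, from 312 counts in all. The TfhA libraries had 0.379, 0.341, 0.108 and 0.318 CPM, from 13 counts in all. In Tfh5 it had 0 counts in all 5 libraries. The groups did not overlap in any comparison. Havcr2 was 14.3-fold lower in TfhA than in Th1 (log2 fold change -3.84 ± 0.45, adjusted p = 6.01e-07). Against a floor of 3 counts over the 5 Tfh5 libraries, which stands for 0.0547 CPM, it was at least 80-fold lower in Tfh5 than in Th1 and at least 5.45-fold lower than in TfhA (adjusted p = 6.84e-10 and 0.000737). The test against TfhA rests on 13 counts against 0 in a gene that passed the count filter through Th1, and it could not be made with only those libraries. These bounds cover counting error only. The summed level of 13 markers of monocytes, macrophages and dendritic cells, which also carry TIM-3, ranged over 11.2 to 18.8 CPM in Th1 libraries, 5.41 to 10.6 CPM in TfhA libraries and 4.67 to 9.99 CPM in Tfh5 libraries, with Adgre1, C1qa and Siglech at 0 counts in all groups. Mpeg1 was the largest contributor in Th1, with 8.91, 0.269 and 0.535 CPM in Th1, TfhA and Tfh5. Itgam was lowest in Th1 (0.15, 2.02 and 0.865 CPM), and Cd68 did not pass in any comparison. Of 5 tested markers of this list, 1 was higher and 1 lower in TfhA than in Th1 (23.2% and 21.6% of all tested genes). Between Tfh5 and Th1, 2 were higher and 1 lower (31.5% and 33% of all tested genes). The part of such cells in the Havcr2 result was not tested.

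Cd160 (Entrez gene 54215, chr3:96798763-96829351, minus strand) was the receptor gene that peaked in TfhA. The Th1 libraries had 0.436, 0.416, 0.529, 1.32 and 0.761 CPM. The TfhA libraries had 9.92, 11.4, 9.09 and 9.23 CPM. The Tfh5 libraries had 1.71, 1.53, 2.26, 1.8 and 1.35 CPM. No groups overlapped, and the order TfhA, Tfh5, Th1 held for every library. Cd160 was 14.2-fold higher in TfhA than in Th1 (log2 fold change 3.83 ± 0.30, adjusted p = 1.88e-10), 5.73-fold lower in Tfh5 than in TfhA (-2.52 ± 0.28, adjusted p = 2.88e-08) and 2.48-fold higher in Tfh5 than in Th1 (1.31 ± 0.32, adjusted p = 0.00103). In 68 bases its exons overlap those of Pdzk1 on the other strand, whose level was 3.2, 5.95 and 4.17 CPM in Th1, TfhA and Tfh5, so that without a known strand setting some reads could belong to either gene.

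Markers of γδ T cells, which can carry CD160, had a sum with the order of Cd160. This sum (6 genes, mostly Trdc) ranged over 5.37 to 9.16 CPM in Th1 libraries, 42.9 to 107 CPM in TfhA libraries and 7.77 to 17.1 CPM in Tfh5 libraries. Of 4 tested markers, 4 were higher in TfhA than in Th1 (23.2% of all tested genes) and 3 lower in Tfh5 than in TfhA (30.1%). In Tfh5 against Th1, 2 were higher (31.5%), while Trgc2 and Trgc4 did not pass. The untested Sox13 was highest in Th1 (0.487, 0.191 and 0.0189 CPM in Th1, TfhA and Tfh5) and Blk in Tfh5 (0.0443, 0.172 and 0.307 CPM). Within TfhA the library with the highest Cd160 (replicate 2, 11.4 CPM) had the lowest summed γδ marker level (42.9 CPM), and the library with the lowest Cd160 (replicate 4, 9.09 CPM) had the highest (107 CPM). Cd160 varied little within this group, so the order of its few libraries cannot bear on the difference between groups. Markers of CD8 T and NK cells had overlapping sums in the groups (59.8 to 105 CPM for Th1, 65.2 to 95.9 for TfhA and 67.9 to 114 for Tfh5), with Ncr1 at 0 counts in every library. Within that list single genes went opposite ways. Klrk1 (40.9, 23.1 and 0.916 CPM in Th1, TfhA and Tfh5) and Klra3 (2.45, 0.681 and 0 CPM) had the order of Cd226, and Klrk1 was 25.4-fold lower in Tfh5 than in TfhA (adjusted p = 1.16e-12). Klrd1 had the reverse order (16.6, 40.3 and 73.4 CPM) and was the largest contributor to the sum in TfhA and Tfh5. The other tested members, Cd8b1 and Klre1, did not pass in any comparison. The part of such cells in the levels of Cd160 and Cd226 was not tested.

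Vsir (Entrez gene 74048, chr10:60346851-60430294, plus strand), which encodes VISTA, rose in steps from Th1 over TfhA to Tfh5. The Th1 libraries had 69.7, 58.5, 48.8, 56.7 and 56.6 CPM. The TfhA libraries had 132, 153, 126 and 112 CPM. The Tfh5 libraries had 173, 202, 189, 189 and 224 CPM. No groups overlapped, and each step passed. Vsir was 2.25-fold higher in TfhA than in Th1 (log2 fold change 1.17 ± 0.11, adjusted p = 3.18e-09), 1.5-fold higher in Tfh5 than in TfhA (0.58 ± 0.11, adjusted p = 5.89e-05) and 3.37-fold higher in Tfh5 than in Th1 (1.75 ± 0.10, adjusted p = 1.81e-13).

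The promoter sequences of the genes that were highest in Tfh5 without overlap, Cd96 and Vsir, and of Havcr2, which had no count there, are shown because these genes stood at opposite ends in Tfh5. Each line is the 250 bases before the RefSeq start site (GRCm38.p6), read 5′ to 3′ on the strand of the gene. They lie at chr16:46120249-46120498 (minus strand), chr10:60346601-60346850 (plus strand) and chr11:46454681-46454930 (plus strand). Capitals mark matches on either strand to the letters searched, which were TGCTGA (MAF half-site), GGTGTGA (T-box half-site), TGANTCA (AP-1 site), CAGACA (SMAD site) and CTTTGAT (TCF site).
Cd96: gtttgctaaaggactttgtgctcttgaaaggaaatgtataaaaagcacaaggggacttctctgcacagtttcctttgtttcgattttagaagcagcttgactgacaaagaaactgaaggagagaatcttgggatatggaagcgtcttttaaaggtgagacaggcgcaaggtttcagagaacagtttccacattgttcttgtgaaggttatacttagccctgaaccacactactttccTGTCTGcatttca
Vsir: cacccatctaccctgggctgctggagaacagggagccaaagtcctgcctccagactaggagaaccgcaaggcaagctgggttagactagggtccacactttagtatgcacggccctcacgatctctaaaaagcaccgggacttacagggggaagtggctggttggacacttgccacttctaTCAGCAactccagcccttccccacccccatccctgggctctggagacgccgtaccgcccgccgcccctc
Havcr2: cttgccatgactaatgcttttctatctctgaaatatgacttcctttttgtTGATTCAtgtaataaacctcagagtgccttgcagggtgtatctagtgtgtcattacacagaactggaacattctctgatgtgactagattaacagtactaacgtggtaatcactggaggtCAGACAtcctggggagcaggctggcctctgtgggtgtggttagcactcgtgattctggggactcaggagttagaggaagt
The Cd96 window held 1 SMAD site match, 13 bases before the start. The Vsir window held 1 MAF half-site match, 69 bases before the start. The Havcr2 window held an AP-1 and a SMAD site match, 200 and 80 bases before the start. The bases just after this Havcr2 start were found in no GENCODE M21 transcript of the gene, whereas those of Cd96 and Vsir were. The Havcr2 distances therefore hold for the RefSeq start only. Of 32851 promoters of this length, 17.1% held the SMAD letters, 16.1% the MAF letters, 6.75% the AP-1 letters, 3.33% the T-box letters and 3.21% the TCF letters. A match describes letters and not binding, which was not measured. RefSeq promoter sequences were matched for 5 of the 7 genes, Lag3 and Cd226 being the others.

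Taking all 7 genes per length of exon, their summed level was 137 ± 14.1 CPM per kb in Th1, 113 ± 11.3 in TfhA and 186 ± 24.2 in Tfh5. Lag3 held 40.6% ± 4.95 of it in Th1, 23.4% ± 3.36 in TfhA and 42.6% ± 3.48 in Tfh5. Tigit held 28.5% ± 0.99 in TfhA and was there the largest contributor per length, ahead of Lag3. In CPM, Lag3 was above Tigit in TfhA (55.9 against 29.6). In Tfh5 the largest shares were those of Lag3, Cd96 (24.6% ± 2.83) and Vsir (21.1% ± 1.86), the genes that were higher there than in TfhA. Havcr2 and Cd160 never held more than 1.54% and 3.48% in any library.

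**Figure D3:**
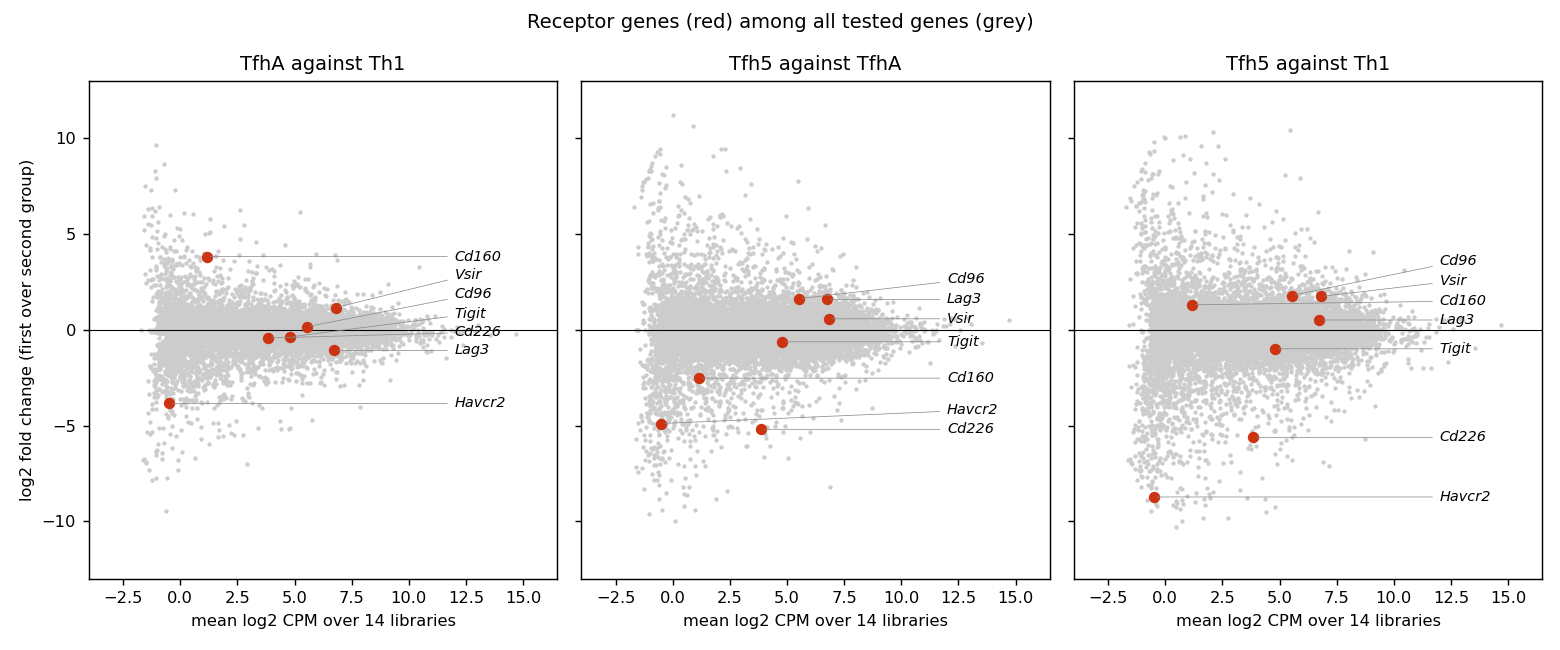
Log2 fold change (y axis) against mean log2 CPM over the 14 libraries (x axis) for all 13075 tested genes (grey) and the 7 receptor genes (red), in each comparison. Cd226 and Havcr2 lie at the lower edge in the panels of Tfh5. For TfhA against Th1, Cd160 lies high (rank 68 from the top) and Havcr2 low (rank 80 from the bottom). For Tfh5 against TfhA, Cd96 and Lag3 rank 697 and 729 from the top and Cd160 ranks 508 from the bottom. The fitted fold change of Havcr2 in Tfh5, where it has no count, depends on the model and is no bound.

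The genes whose levels followed each receptor most closely are named by the Pearson correlation of log2 CPM over the 14 libraries, which share their 3 groups, so that a high value mostly says that the group means run alike. Cd96 ran closest to both TGF-β receptor genes, Tgfbr1 (0.996) and Tgfbr2 (0.993), and to Cd33 (0.993). Tgfbr1 had 17.5, 19.1 and 136 CPM in Th1, TfhA and Tfh5. Vsir ran closest to the TNF receptor family gene Cd27 (0.990), to Rasa3 (0.988) and to Smad3 (0.986), a transducer of TGF-β signals with 30.1, 107 and 172 CPM. For Cd226 the closest were Serpinb9 (0.993), an inhibitor of granzyme B, Gbp7 (0.993) and Klrk1 (0.990), the activating receptor NKG2D, which fell from 40.9 and 23.1 CPM to 0.916 CPM in Tfh5. Havcr2 ran closest to Stra6 (0.993), Cd81 (0.991) and the transcription factor gene Bhlhe40 (0.989), all highest in Th1. For Lag3 (Dnajb5 and Sh2b1), Tigit (Tmem201, Fndc9 and Aig1) and Cd160 (Tespa1, Atp10a and Dennd2d) the correlations with the genes named were 0.943 to 0.965.

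Transcripts of several receptor ligands were present in the same libraries. Of 6 tested genes among ligands and relatives of the nectin-binding receptors, 1 was higher and 1 lower in Tfh5 than in TfhA, and 2 were higher and 3 lower in TfhA than in Th1. Of all tested genes, 27.4% were higher and 30.1% lower in the first comparison, and 23.2% and 21.6% in the second. The same shares stand beside the counts of the other lists below. Pvr, the main ligand of TIGIT, CD96 and CD226, had 56.7 ± 6.33 CPM in Th1 and was lower in TfhA, at 39.5 ± 3.25 CPM (1.44-fold, adjusted p = 0.000372). It had 36.3 ± 3.32 CPM in Tfh5 (log2 fold change against TfhA -0.12 ± 0.11, adjusted p = 0.364). Crtam, a related receptor of activated lymphocytes, was 15.2-fold higher in TfhA than in Th1 (36.5 ± 1.46 against 2.4 ± 0.619 CPM, adjusted p = 9.27e-15) and had 3.06 ± 0.604 CPM in Tfh5. Crtam thus peaked in TfhA as Cd160 did.

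Of 7 tested LAG-3 ligands and partners, 2 were higher and 4 lower in Tfh5 than in TfhA (27.4% and 30.1% of all tested genes). The MHC class II gene H2-Ab1 was highest in Th1 (75.9 ± 7.09 CPM), lower in TfhA (25.6 ± 5.61 CPM) and lowest in Tfh5 (3.93 ± 0.917 CPM, 6.52-fold below TfhA, adjusted p = 9.25e-13). H2-Aa had 6.99 ± 1.16 CPM in TfhA and 0 counts in Tfh5, at least 127-fold lower against the same floor. Lgals3, the galectin-3 gene, was 2.51-fold lower in Tfh5 than in TfhA (28.3 ± 6.68 against 71 ± 14.6 CPM, adjusted p = 7.13e-07). These ligand genes were lowest in Tfh5, where Lag3 was highest. Between TfhA and Th1, 2 were higher and 2 lower, of which Cd4 and Adam17, the gene of a protease that sheds LAG-3, were near the threshold (adjusted p = 0.0477 and 0.0234) and lost their calls without TfhA replicate 4 (0.14 and 0.0749), among other libraries (0.00928 to 0.14 and 0.0107 to 0.104 over all alternatives). Adam10, which also encodes a protease that sheds LAG-3, was 1.4-fold higher in Tfh5 than in Th1 (188 ± 39.2 against 134 ± 8.53 CPM, adjusted p = 0.000596).

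Among TIM-3 ligands and relatives, 5 genes were tested. Of these, 1 was higher and 2 lower in Tfh5 than in TfhA (27.4% and 30.1% of all tested genes). Lgals9, which encodes galectin-9, was lower in TfhA than in Th1, at 92.2 ± 19.7 against 127 ± 7.49 CPM (1.38-fold, adjusted p = 0.0017) and had 98.2 ± 7.16 CPM in Tfh5. Hmgb1, which encodes a nuclear protein that TIM-3 can bind, was 1.91-fold higher in TfhA than in Th1 (42.1 ± 3.34 against 22.1 ± 1.63 CPM, adjusted p = 3.15e-07). Bag6, whose product binds the tail of TIM-3, was 1.46-fold lower (130 ± 20.5 against 190 ± 30 CPM, adjusted p = 0.00031). Timd2, a TIM family gene 187704 bases from Havcr2, did not share the order of Havcr2: it was highest in TfhA (15.1 ± 3.08 CPM), followed by Th1 (5.51 ± 1.16) and Tfh5 (1.59 ± 0.455), each step past the threshold. Havcr2 and Timd2 were both lowest in Tfh5.

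Of 5 genes around CD160 and HVEM, 1 was higher and 3 lower in Tfh5 than in TfhA (27.4% and 30.1% of all tested genes). Between TfhA and Th1 only Lta passed, where 44.8% of all tested genes did. Tnfrsf14, which encodes HVEM, was 2.76-fold higher in Tfh5 than in TfhA (32.7 ± 5.34 against 11.9 ± 2.85 CPM, adjusted p = 5.71e-08). Btla, the other inhibitory receptor for HVEM, was 2.69-fold lower (334 ± 26.4 against 897 ± 123 CPM, adjusted p = 9.37e-12), as was the HVEM ligand gene Tnfsf14 (3.77-fold). Cd160 and Btla were both lower and their ligand gene higher in Tfh5 than in TfhA. Among the VISTA ligands, Selplg, the PSGL-1 gene, was 1.52-fold higher in Tfh5 than in TfhA (185 ± 20.4 against 122 ± 28.3 CPM, adjusted p = 0.00116), and Igsf11 and Vsig8 were not tested.

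Of 14 tested further inhibitory or co-regulated receptor genes, 9 were higher and 3 lower in Tfh5 than in TfhA, with a median log2 fold change of 0.71 beside -0.01 over all tested genes. Between TfhA and Th1 the count was 5 higher and 5 lower. Of all tested genes, 27.4% were higher and 30.1% lower in the first comparison, and 23.2% and 21.6% in the second. Ctla4, which like Pdcd1, Irf4 and Tox below is named after its values were seen, was lowest in TfhA as Lag3 was, with 606 ± 46.7 CPM in Th1, 221 ± 20.6 in TfhA and 643 ± 62 in Tfh5. Pdpn (podoplanin), with 14.8 ± 1.3, 0.42 ± 0.249 and 83.4 ± 10.7 CPM, and Procr, with 21.1 ± 3.53, 1.6 ± 0.27 and 7.78 ± 2.44 CPM, were also lowest in TfhA. Entpd1, which encodes CD39, was likewise lowest there (1.77 ± 0.224 CPM) and highest in Th1 (21.3 ± 3.39 CPM). Cd101 rose 18.8-fold from TfhA to Tfh5 (176 ± 17.4 CPM in Tfh5) and Pdcd1, the PD-1 gene, 1.64-fold (adjusted p = 2.66e-18 and 0.000154). Cd72 was near its limit of detection in Th1 and TfhA (0.476 ± 0.211 and 0.317 ± 0.384 CPM) and had 11.4 ± 1.75 CPM in Tfh5 (adjusted p = 2.15e-10 against TfhA). Pecam1, the CD31 gene, was 4.5-fold higher in TfhA than in Th1 (119 ± 14.7 against 26.3 ± 1.77 CPM, adjusted p = 3.77e-15). Klrc1, which encodes NKG2A, was 8.95-fold lower in Tfh5 than in Th1 (1.14 ± 0.608 against 10.5 ± 2.57 CPM, adjusted p = 2.53e-10). Klrc1 and Cd226 were both lowest in Tfh5, but Klrc1 was highest in TfhA (16.6 ± 2.02 CPM) and Cd226 in Th1. Lilrb4a, a receptor whose reads can be shared with a near-identical relative, fell with Cd226 from 148 ± 37.4 CPM to 2.91 ± 1.43.

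**Figure D4:**
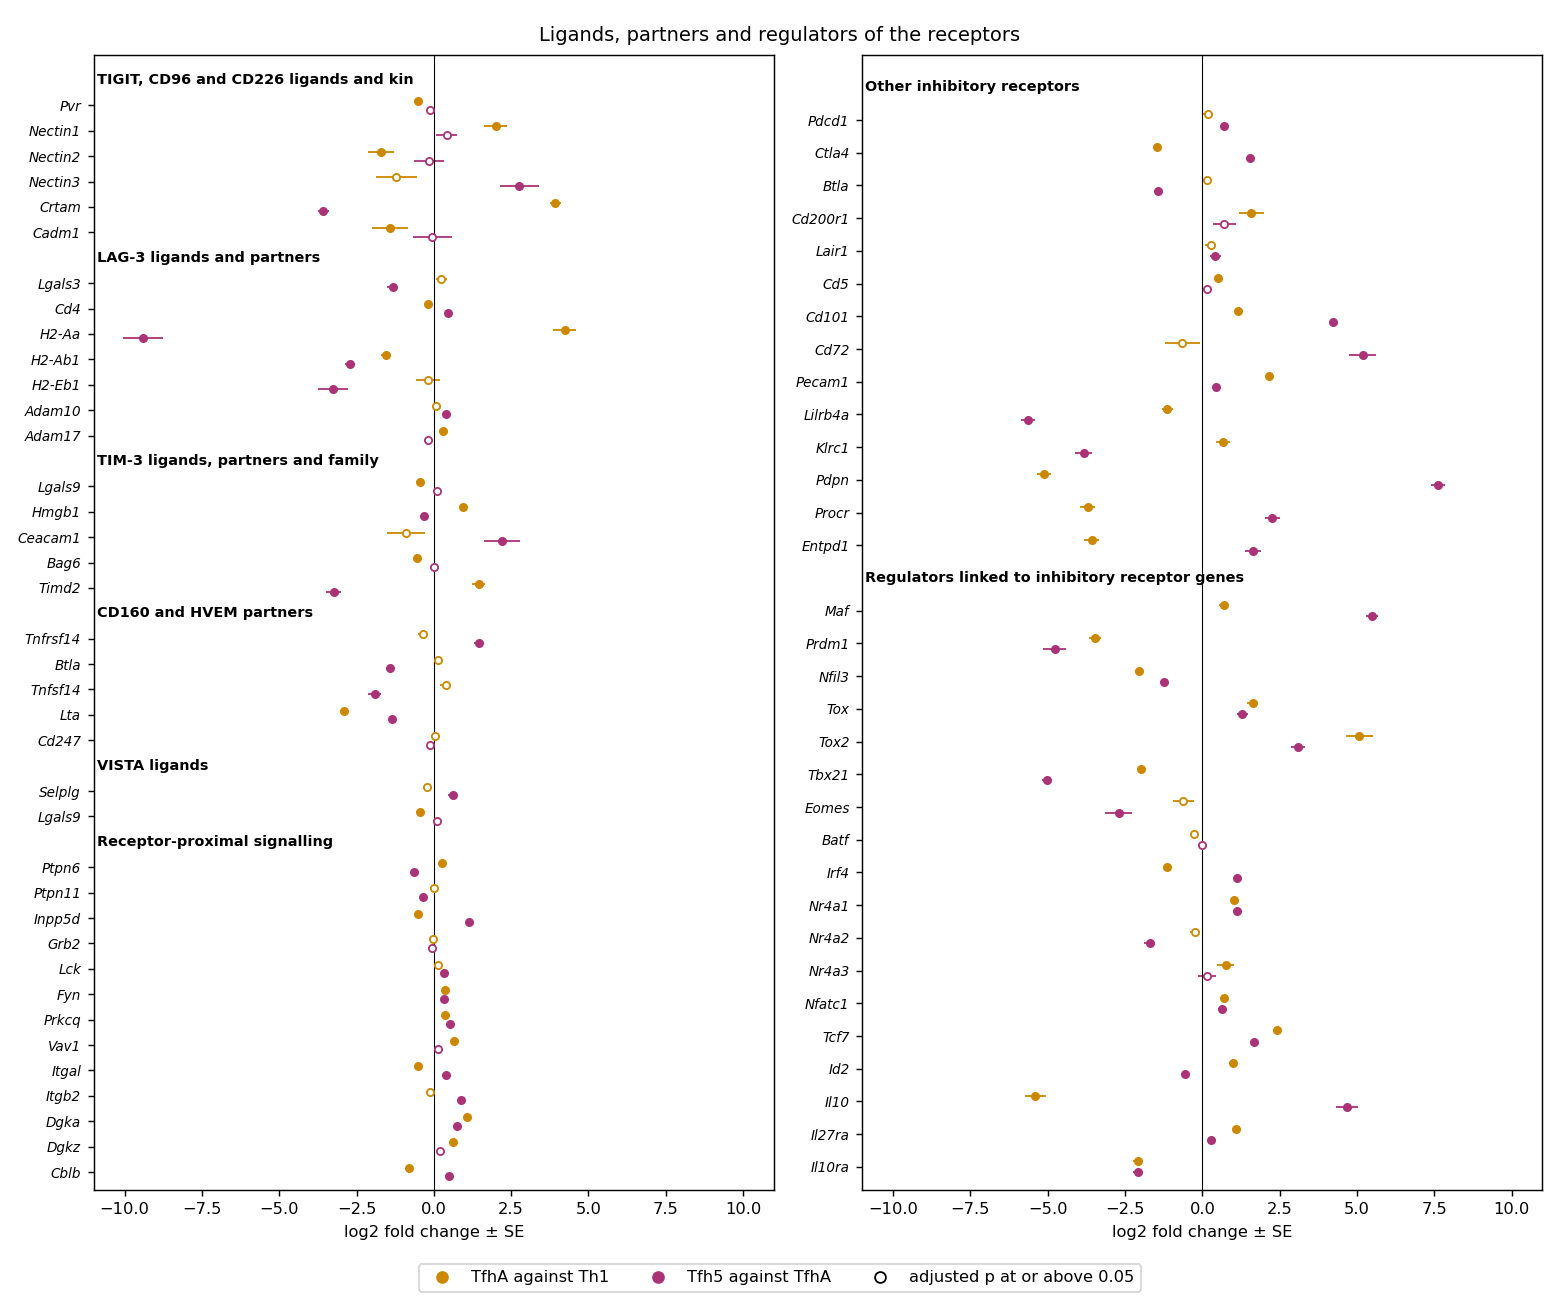
Log2 fold change ± SE (x axis) of the tested ligands, partners, signalling genes, further inhibitory receptors and regulators, for TfhA against Th1 (orange) and Tfh5 against TfhA (purple). Open symbols did not pass. A level that is lowest in TfhA, with an orange point to the left and a purple point to the right of 0, is seen among others for Ctla4, Pdpn, Procr, Entpd1, Irf4 and Il10, and the fitted value of H2-Aa for Tfh5 is no bound because it had no count there.

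Of 18 regulators that have been linked to inhibitory receptor genes, 9 were higher and 7 lower in Tfh5 than in TfhA. Of all tested genes, 27.4% were higher and 30.1% lower in that comparison. Maf rose from 31.7 ± 3.03 to 1419 ± 153 CPM while Prdm1, which encodes Blimp-1, had 42 ± 4.66 CPM in Th1, 3.76 ± 0.971 in TfhA and 0.13 ± 0.11 in Tfh5. Both transcription factors are known to drive inhibitory receptor genes together. Irf4 (2212 ± 104, 1011 ± 92.1 and 2224 ± 69.6 CPM in Th1, TfhA and Tfh5) and the cytokine gene Il10 (15.8 ± 2.39, 0.323 ± 0.342 and 9.56 ± 1.39 CPM) shared with Lag3 their lowest level in TfhA. The Th1 regulator Tbx21 (244 ± 35.3, 61.6 ± 7.06 and 1.9 ± 0.424 CPM) ran in the order of Tigit, Havcr2 and Cd226, highest in Th1 and lowest in Tfh5. Tox (19.8 ± 2.31, 61.3 ± 19.6 and 151 ± 27.7 CPM) ran in the order of Vsir. So did Tox2 (0.0693 ± 0.0493, 2.7 ± 0.934 and 23.2 ± 5.23 CPM) and Tcf7, which encodes TCF-1 (124 ± 17.7, 658 ± 117 and 2080.4 ± 135 CPM). Il10ra, a chain of the IL-10 receptor, ran the opposite way (78.6 ± 9.5, 18.4 ± 2.08 and 4.37 ± 1.11 CPM).

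Of 13 tested genes that act below these receptors in the cell, 8 were higher and 2 lower in Tfh5 than in TfhA, with a median log2 fold change of 0.34. Between TfhA and Th1, 6 were higher and 3 lower. Of all tested genes, 27.4% were higher and 30.1% lower in the first comparison, and 23.2% and 21.6% in the second. The phosphatase gene Inpp5d (SHIP-1), used by TIGIT, rose 2.21-fold from TfhA to Tfh5 (72.8 ± 7.87 to 161 ± 19.4 CPM, adjusted p = 1.27e-09), and the phosphatase gene Ptpn6 (SHP-1) fell 1.57-fold (231 ± 18.1 to 147 ± 14.3 CPM, adjusted p = 3.74e-06). Itgb2, a chain of the integrin LFA-1 with which CD226 associates, rose 1.86-fold (372 ± 31.9 to 690 ± 69 CPM, adjusted p = 9.36e-09), while Cd226 itself fell. The largest change against Th1 was that of Dgka, a kinase gene whose product removes diacylglycerol, with 220 ± 10.9 CPM in Th1, 465 ± 42.3 CPM in TfhA and 777 ± 67.1 CPM in Tfh5 (2.11-fold and 3.53-fold above Th1, adjusted p = 4.08e-10 and 1.94e-15). Its relative Dgkz (1.75-fold) and the signalling genes Vav1 (1.73-fold) and Prkcq (1.8-fold) were also higher in Tfh5 than in Th1. Cblb, the gene of a ubiquitin ligase that restrains T cell activation, was 1.73-fold lower in TfhA than in Th1 (469 ± 43.5 against 811 ± 48.6 CPM, adjusted p = 4.25e-07).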

How the data were processed

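Raw read counts per gene were made by the authors with STAR 2.7.2b and featureCounts 1.6.4 on mm10, per the submitters' processing notes. No source used here gives the annotation, strand setting or treatment of reads with several matches. The deposited counts of 14 libraries were scaled by TMM and fitted in edgeR 4.0.16 (R 4.3.3) with its quasi-likelihood test, with 1 coefficient per group, after filterByExpr. Levels per length used the exon union of GENCODE M21 on GRCm38. Log2 CPM values, used for correlations and mean levels, had a prior count of 2. The log2 fold changes came from the fit, which did not use that value. For the bounds only, a group at 0 was set to a floor of 3 counts. The members and lists were chosen with earlier results of these data known. From each list, up to 4 genes per comparison that passed with at least 5 CPM in a group were named by size of log2 fold change, and for each receptor the 3 genes with the highest correlation among genes of at least 10 CPM in a group, of which 1 is not reported here. Alternatives were RLE scaling, DESeq2 1.42.0, no filter, only the compared groups, a replicate block and leaving out each library. The fit was tested on simulated counts.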

Additional observations from a re-analysis of the deposited data

How the results depend on the processing

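Over 19 alternatives per comparison, none of 398 fold changes of the 7 receptor genes reversed, 387 stayed on their side of the threshold and 11 lost their call, all for Cd226 and Tigit between TfhA and Th1. The number of receptor genes that passed was 6 to 7 for Tfh5 against TfhA, where Havcr2 fell below the count filter with only the compared groups, 4 to 6 for TfhA against Th1 and 7 for Tfh5 against Th1. Of all tested genes, 7520, 5852 and 8440 passed in Tfh5 against TfhA, TfhA against Th1 and Tfh5 against Th1, and 7008 to 7633, 5220 to 6146 and 8031 to 8633 passed when 1 library was left out. Of 4 LAG-3 partner genes that passed between TfhA and Th1, 2 passed with no filter on low counts. When 1 library was left out, list counts moved to 2 for the LAG-3 partners, to 2 from 1 for the CD160 and HVEM partners (TfhA against Th1) and to 1 from 2 for the VISTA ligands (Tfh5 against Th1). The cause was not tested. Depth limits Havcr2 and Cd226 in Tfh5 (0 and 68 counts) and Cd160 in Th1 (49 counts).

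With the replicate number as a block, 7258, 5521 and 8285 genes passed in the same order, and the difference of Cd226 between TfhA and Th1 lost its call (-0.42 ± 0.17, edgeR quasi-likelihood adjusted p = 0.0543, 0.0077 to 0.169 over all alternatives). Of 13 pairs with the same number, 1 had a correlation of deviations above 0.1. The median was 0.025 for these pairs and -0.00097 for the 52 pairs with different numbers. Of 14 libraries, 5 correlated best with their own number. The share that would do so by chance was not computed, so these values do not settle whether the numbers mark pairs.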
